A study of Mus musculus with 37 samples.

Results

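The genes described here are 10 transcripts of the crypt base and of its Wnt signalling, Lgr5, Ascl2, Axin2, Smoc2, Ephb2, Ephb3, Sox9, Rnf43, Znrf3 and Cd44. They were chosen by name, with earlier results of these data known, and found through array probe clusters annotated to a single gene symbol, with the brightest cluster kept for each symbol. Of the 10 genes, 9 were measured among 19938 genes in all, each by 1 cluster, and Ephb2 was not analysed here. Mean signal over all arrays ran from 8.03 log2 units for Ascl2 to 10.63 for Sox9. These are probe intensities after robust multi-array averaging (RMA), so levels of different genes are not set against each other.

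Colon RNA of 37 mice was hybridised, each sample to its own array of the Affymetrix Mouse Gene 1.0 ST design. Knockout mice carried B6.129S4-Timp1tm1Pds/J, a targeted allele of Timp1, the secreted tissue inhibitor of metalloproteinases 1, and wild types were C57BL/6J, which is also the strain given for the knockouts. Colitis was induced by oral dextran sodium sulphate (DSS), a polysaccharide that injures the epithelium of the colon, as acute or as chronic colitis, and both had their own controls. The groups were knockout acute DSS (n = 6), knockout acute control (n = 3), wild-type acute DSS (n = 5), wild-type acute control (n = 3), and 5 mice in each of knockout chronic DSS, knockout chronic control, wild-type chronic DSS and wild-type chronic control. Age, DSS dose and duration are not given in the sources used here. The knockout is not restricted to a cell type.

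The colonic epithelium is renewed from stem cells at the base of each crypt, which are kept by Wnt ligands and R-spondins from the surrounding stroma. Wnt binding to Frizzled and LRP receptors stabilises beta-catenin, which acts with TCF/LEF factors on target genes. R-spondins bind the LGR receptors and thereby hold back the membrane ubiquitin ligases that would remove Frizzled. Several of the genes described here are themselves Wnt targets, among them feedback inhibitors that limit the same signal.

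By role, Lgr5 encodes the R-spondin receptor that marks crypt base stem cells, Ascl2 a basic helix-loop-helix transcription factor that these cells require, and Smoc2 a secreted matricellular protein of the stem cell signature that stromal cells also make. Axin2 is a scaffold of the beta-catenin destruction complex and a feedback target of Wnt. Rnf43 and Znrf3 are the ubiquitin ligases that take Frizzled from the cell surface. Ephb3, like Ephb2, is a receptor for ephrin-B ligands that keeps crypt base cells in place. Sox9 is a transcription factor of the crypt base and of progenitors, and Cd44 is the hyaluronan receptor, a Wnt target in crypts that leukocytes and stromal cells carry as well.

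Promoter sequences (250 bases before to 50 after an annotated start) were at hand for 6 of the genes, from RefSeq on GRCm38.p6. The 3 shown are those of Axin2 and Ephb3, which fell in wild-type acute DSS, and of Cd44, which rose. They were searched on both strands for CTTTG, the core of the TCF/LEF motif (CAAAG on the other strand), and for CAGCTG, an E-box of the kind bound by basic helix-loop-helix factors. Capitals mark a match.
Axin2, chr11:108920099-108920398, plus strand: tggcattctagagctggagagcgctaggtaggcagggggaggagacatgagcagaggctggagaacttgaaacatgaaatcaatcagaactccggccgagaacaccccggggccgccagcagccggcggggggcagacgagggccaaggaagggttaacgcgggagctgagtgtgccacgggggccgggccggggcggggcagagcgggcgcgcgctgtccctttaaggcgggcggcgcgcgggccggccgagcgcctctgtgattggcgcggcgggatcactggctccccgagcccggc
Ephb3, chr16:21204545-21204844, plus strand: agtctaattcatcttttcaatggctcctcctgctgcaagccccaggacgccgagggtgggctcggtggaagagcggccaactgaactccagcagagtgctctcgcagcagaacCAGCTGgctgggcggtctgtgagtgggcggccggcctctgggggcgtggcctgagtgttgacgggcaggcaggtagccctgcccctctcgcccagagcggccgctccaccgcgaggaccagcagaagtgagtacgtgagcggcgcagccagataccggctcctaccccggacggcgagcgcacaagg
Cd44, chr2:102901616-102901915, minus strand: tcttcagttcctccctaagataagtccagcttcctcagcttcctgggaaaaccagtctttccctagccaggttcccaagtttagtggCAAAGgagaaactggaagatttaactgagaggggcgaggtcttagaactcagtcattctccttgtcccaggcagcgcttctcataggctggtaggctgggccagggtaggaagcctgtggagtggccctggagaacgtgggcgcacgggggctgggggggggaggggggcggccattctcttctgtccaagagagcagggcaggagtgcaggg
Among the 7 sequences of the 6 genes (Ascl2, Axin2, Ephb2, Ephb3, Cd44 and 2 for Rnf43), CTTTG occurred in that of Cd44 alone, and CAGCTG in that of Ephb3 alone. Over 32851 mouse promoters of the same length, 53.9% held CTTTG and 16.3% held CAGCTG. A match is a run of letters and not a shown binding site, and these windows leave out distal elements. The Axin2 window lies downstream of the annotated beginning of the gene (chr11:108917828), so it does not cover the sequence there.

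A few arrays stood apart and bear on what follows. In wild-type acute DSS, the mean signal of 12 pan-epithelial genes was 11.53 and 10.66 in replicates 1 and 3 and 12.27 to 12.29 in the other 3, against 12.43 to 12.50 in wild-type acute controls. Knockout acute DSS replicate 6 was the lowest of its group in 7 of the 9 genes, with a pan-epithelial signal of 12.09 against 12.35 to 12.48 in its 5 group mates, and with the group's highest Timp1 signal, 8.68 against 7.10 to 7.68. The difference of knockout minus wild type in Timp1 itself was -3.14 ± 0.33 log2 units under acute DSS and -1.38 ± 0.34 under chronic DSS. It stood at -0.62 ± 0.44 in acute controls and 0.01 ± 0.34 in chronic controls. The labels do not say whether the array probes lie in the altered part of the gene. Colon identity genes had mean signals of 9.40 to 13.02 and small intestine genes 6.54 to 7.64 in single arrays; they come from different probes, so the gap does not test the labelled tissue. In bulk colon, fewer cells of a type and less RNA per cell cannot be told apart.

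Acute DSS in wild-type mice went with lower signal of most of the crypt base genes. Of the 9, 7 fell and 1 rose at an adjusted p under 0.05 (limma over all genes, Benjamini-Hochberg), where 41.2% of all genes passed, 21.8% falling and 19.4% rising. The median difference of the 9 was -0.98 log2 units, against 0.01 over all genes. Lgr5 and Ascl2, the stem cell pair, showed the 2 deepest losses. Cd44 went the other way and Smoc2 did not pass.

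In wild-type acute DSS, Lgr5 had log2 signals of 7.13, 6.84, 6.68, 7.92 and 6.98, against 8.98, 9.17 and 9.18 in wild-type acute controls. All 5 DSS mice lay below all 3 controls, with replicate 4 nearest to them. The 4.0-fold lower mean corresponded to -2.0 ± 0.32 (SE, adjusted p = 1.19e-05). Ascl2 had 7.38, 7.14, 7.20, 7.19 and 6.96 in wild-type acute DSS, against 8.52, 8.45 and 8.97 in controls. The DSS mice were close together here and again all below the controls (-1.48 ± 0.21, adjusted p = 3.42e-06). Smoc2 lay between 8.92 and 9.25 in wild-type acute DSS, against 9.04 to 9.12 in controls, and the groups overlapped (-0.02 ± 0.17, adjusted p = 0.941).

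The feedback inhibitors fell together in wild-type acute DSS. Axin2 had 8.41, 8.05, 8.01, 8.39 and 8.23 in DSS mice, against 9.15, 9.23 and 9.22 in controls. These were the tightest controls of the 3 inhibitors, and no DSS mouse reached them (-0.98 ± 0.13, adjusted p = 7.11e-07). Rnf43 had 8.27, 8.42, 7.72, 8.58 and 8.49 in DSS mice, against 9.18, 9.30 and 9.45 in controls (-1.01 ± 0.18, adjusted p = 5.90e-05), with replicate 3 the lowest. Znrf3 ran from 8.15 to 8.59 in DSS mice, against 8.96 to 9.11 in controls (-0.64 ± 0.11, adjusted p = 2.90e-05).

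Sox9, the progenitor factor, had 9.54, 9.67, 9.14, 10.16 and 9.86 in wild-type acute DSS, against 11.20, 10.94 and 10.61 in controls. The groups did not overlap, and the difference was -1.24 ± 0.18 (adjusted p = 2.77e-06). Ephb3, the positioning receptor, ran from 8.15 to 8.62 in DSS mice, against 9.30 to 9.46 in controls (-0.90 ± 0.13, adjusted p = 5.48e-06). Cd44 had 10.81, 10.39, 11.33, 10.14 and 10.18 in wild-type acute DSS, against 9.55, 9.55 and 9.46 in controls. All DSS mice lay above all controls, replicates 1 and 3 highest (1.05 ± 0.24, adjusted p = 6.64e-04). In all, 7 of the 9 genes had every DSS array below every control array, as 21.4% of all genes had, and 1 had every DSS array above, as 17.7% of all genes had.

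**Figure D1:**
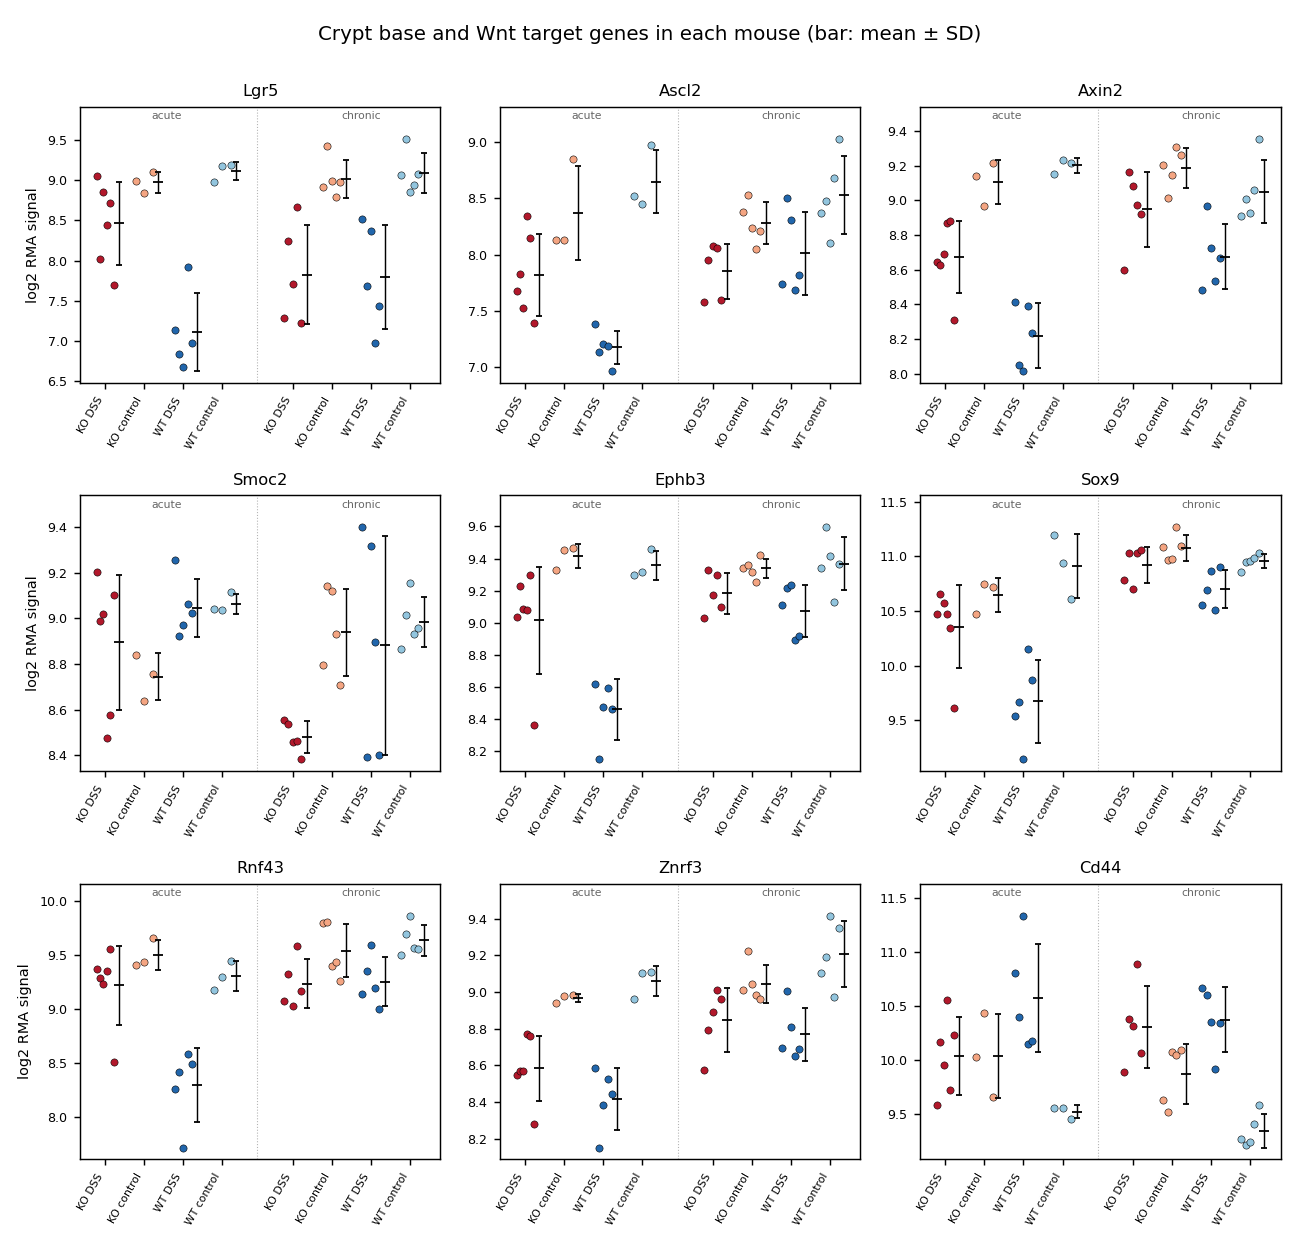
Log2 RMA signal (vertical axis) of the 9 measured crypt base and Wnt genes in each of 37 mice, by genotype (KO, knockout, and WT, wild type), treatment and phase; points are mice and bars are the group mean ± SD. Wild-type acute DSS mice lie below their controls in every panel except those of Smoc2, where the groups overlap, and Cd44, where they lie above.

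Other transcripts moved in the same wild-type acute DSS arrays. Of the 12 pan-epithelial genes 10 fell and 0 rose, with a median of -0.62, for example the claudin Cldn3 (-1.09 ± 0.24) and the ETS factor Elf3 (-1.0 ± 0.27). Of 10 mature colonocyte genes 6 fell, with a median of -0.98, as low as that of the crypt base genes, and of 5 colon identity genes 3 fell, with a median of -2.02, which was lower. Of 12 leukocyte genes 9 rose, and of 10 fibroblast and mesenchyme genes 8 rose, with medians of 1.09 and 1.06. The mean leukocyte signal was 9.32 to 11.28 in wild-type acute DSS, against 8.15 to 8.38 in controls. When each array was scaled to its pan-epithelial signal, which moved the median of all genes by about as much (to 0.67), Lgr5 (-1.34, adjusted p = 0.00123), Ascl2 (-0.82, adjusted p = 0.0149) and Sox9 (-0.58, adjusted p = 0.00827) still fell. Axin2, Ephb3 and Rnf43 then did not pass, and Znrf3 stood at 0.02 (adjusted p = 0.940), while Cd44 (1.71, adjusted p = 4.86e-04) and Smoc2 (0.64, adjusted p = 0.0314) rose. Without wild-type replicates 1 and 3, an omission chosen after their values were seen, the same 8 genes passed, Lgr5 at -1.86 and Cd44 at 0.72 (adjusted p = 2.54e-04 and 0.0175).

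Few cell cycle genes passed beside the stem cell genes. Of 17 measured cell cycle genes 1 fell in wild-type acute DSS, the thymidylate synthase gene Tyms (-0.59 ± 0.13, adjusted p = 8.28e-04), and 0 rose. The proliferation marker Mki67 stood at -0.04 ± 0.23 (adjusted p = 0.913). The mean signal of the 17 genes was 9.41 to 10.01 in wild-type acute DSS, against 9.56 to 10.10 in controls, and the ranges overlapped.

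Of 6 R-spondins and receptors for them other than Lgr5, 2 rose (Rspo3 and Rspo1) and 1 fell (Lgr4) in wild-type acute DSS. Rspo2 (-0.09 ± 0.13), Rspo4 (0.13 ± 0.09) and the receptor Lgr6 (0.12 ± 0.08) did not pass. Rspo3, which stromal cells make, had 9.56, 9.35, 10.19, 8.58 and 8.91 in DSS mice, against 8.04, 7.86 and 7.96 in controls (1.36 ± 0.26, adjusted p = 1.37e-04). Rspo1 had 8.77, 7.86, 8.74, 8.33 and 8.45 in DSS mice, against 7.51, 7.54 and 7.46 in controls (0.93 ± 0.14, adjusted p = 7.56e-06). Rspo3 and Rspo1 were higher in every DSS mouse than in any control. Lgr4, the widely expressed relative of Lgr5, had 10.44, 11.42, 10.13, 11.31 and 11.10 in DSS mice, against 11.95, 11.75 and 11.85 in controls (-0.97 ± 0.20, adjusted p = 3.30e-04), lowest in replicates 1 and 3.

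The counts over the remaining Wnt lists in wild-type acute DSS are to be read against the 41.2% of all genes that passed, and the lists of ligands, receptors and antagonists lay near that share. Of 19 Wnt ligands 6 rose and 1 fell, led by the non-canonical ligand Wnt5a (1.37 ± 0.21) and by Wnt4 (0.42 ± 0.08). Of 14 Frizzled, LRP and related receptors 3 rose and 3 fell, with the Wnt5a receptor Ror2 at 0.75 ± 0.13 and Fzd5 at -0.55 ± 0.21. Of 11 secreted antagonists 5 rose and 0 fell, with Sfrp1 at 1.79 ± 0.38 and Dkk2 at 0.69 ± 0.17. Of 12 genes of the destruction complex and its transducers 1 rose, the kinase gene Csnk1a1 (0.44 ± 0.07). Of 9 TCF/LEF factors and co-activators 3 rose and 3 fell, with Tcf7l1 at -0.58 ± 0.16 and Tcf7l2 at -0.43 ± 0.17.

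Among 20 further crypt base genes 4 rose and 8 fell. Atoh1, which commits progenitors to the secretory lineage, fell by 2.05 ± 0.48, and Hopx, a homeodomain protein of slow-cycling crypt cells, fell by 0.89 ± 0.13, while the urea transporter Slc14a1 rose by 1.11 ± 0.17. Of 12 other Wnt targets 3 rose and 2 fell, with the intestinal homeobox gene Cdx1 at -1.0 ± 0.19 and the Wnt inhibitor Apcdd1 at 0.67 ± 0.14. The ephrin-B ligands Efnb2 (-0.66 ± 0.19) and Efnb1 (-0.63 ± 0.15) fell with their receptor Ephb3, and Efnb3 rose by 0.20 ± 0.07. Of 8 genes that act with Cd44 or on hyaluronan 3 rose and 1 fell, among them the cytoskeletal linkers Msn (1.47 ± 0.26) and Ezr (-0.65 ± 0.13) and the hyaluronan synthase Has2 (0.87 ± 0.34). Of 10 BMP genes 5 rose and 2 fell, with the antagonist Grem1 at 1.93 ± 0.46 and the BMP target Id1 at -1.11 ± 0.22. Of 10 genes of regenerating epithelium 4 rose, with the EGF family ligand Ereg at 3.43 ± 0.57.

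Acute DSS in the knockout gave no call among the 9 genes in limma, where 1.12% of all genes passed. At an unadjusted p under 0.05, 4 of 9 were lower (Ascl2, Axin2, Ephb3 and Znrf3), and 16.3% of all genes reached that level in either direction. The median difference of the 9 was -0.38, against 0.00 over all genes. With arrays weighted by their quality 3 of the 9 fell, and 2 or 3 fell without knockout acute DSS replicate 4 or 5. The shares of all genes that passed in those fits are not given here, so these counts are not read as particular to the 9 genes.

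Lgr5 had a lowest, median and highest signal of 7.70, 8.58 and 9.05 in knockout acute DSS, against 8.83, 8.98 and 9.09 in knockout acute controls. Replicates 1 and 3 stood within the control range and replicates 2 and 6 well below it (-0.51 ± 0.31, adjusted p = 0.425). Ascl2 had 7.39, 7.75 and 8.34 (lowest, median, highest) in knockout DSS, against 8.13, 8.13 and 8.85 in controls (-0.55 ± 0.21, adjusted p = 0.166). The groups overlapped through replicates 4 and 5.

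Axin2, Ephb3 and Znrf3 lay below all knockout controls in all 6 knockout DSS mice, as 3.68% of all genes did. Axin2 had 8.31, 8.67 and 8.88 (lowest, median, highest) in knockout DSS, against 8.97, 9.14 and 9.22 in controls (-0.44 ± 0.12, adjusted p = 0.0668). Znrf3 had 8.28, 8.57 and 8.77 in knockout DSS, against 8.94, 8.98 and 8.98 in controls (-0.38 ± 0.11, adjusted p = 0.0636). Ephb3 ran from 8.36 to 9.30, against 9.33 to 9.46 in controls (-0.40 ± 0.13, adjusted p = 0.110). Sox9 and Rnf43 stood at -0.29 ± 0.17 and -0.28 ± 0.18 and Smoc2 at 0.15 ± 0.16, none of them called. Cd44 ran from 9.58 to 10.55 in knockout DSS, against 9.66 to 10.43 in knockout controls, with a difference of -0.00 ± 0.23 (adjusted p = 0.998).

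In these knockout mice 0 of 12 pan-epithelial genes passed (median -0.12), and so did 0 of 12 leukocyte and 0 of 10 mesenchyme genes (medians 0.74 and 0.19). At an unadjusted p under 0.05 these lists held 1, 5 and 1 genes. Of the Wnt lists, Fzd7, a Frizzled receptor, fell (-0.48 ± 0.12, adjusted p = 0.0359). Rspo3 ran from 7.44 to 8.95 in knockout DSS, against 7.69 to 7.90 in controls, and Rspo1 from 7.56 to 7.75, against 7.42 to 7.73, neither of them called. The 6 knockout DSS mice came from 2 series of animal numbers and their controls from 1 of these. Within that series, 3 against 3, Lgr5 stood at -0.68 ± 0.25 and Axin2 at -0.42 ± 0.17 (adjusted p = 0.541 and 0.553).

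**Figure D2:**
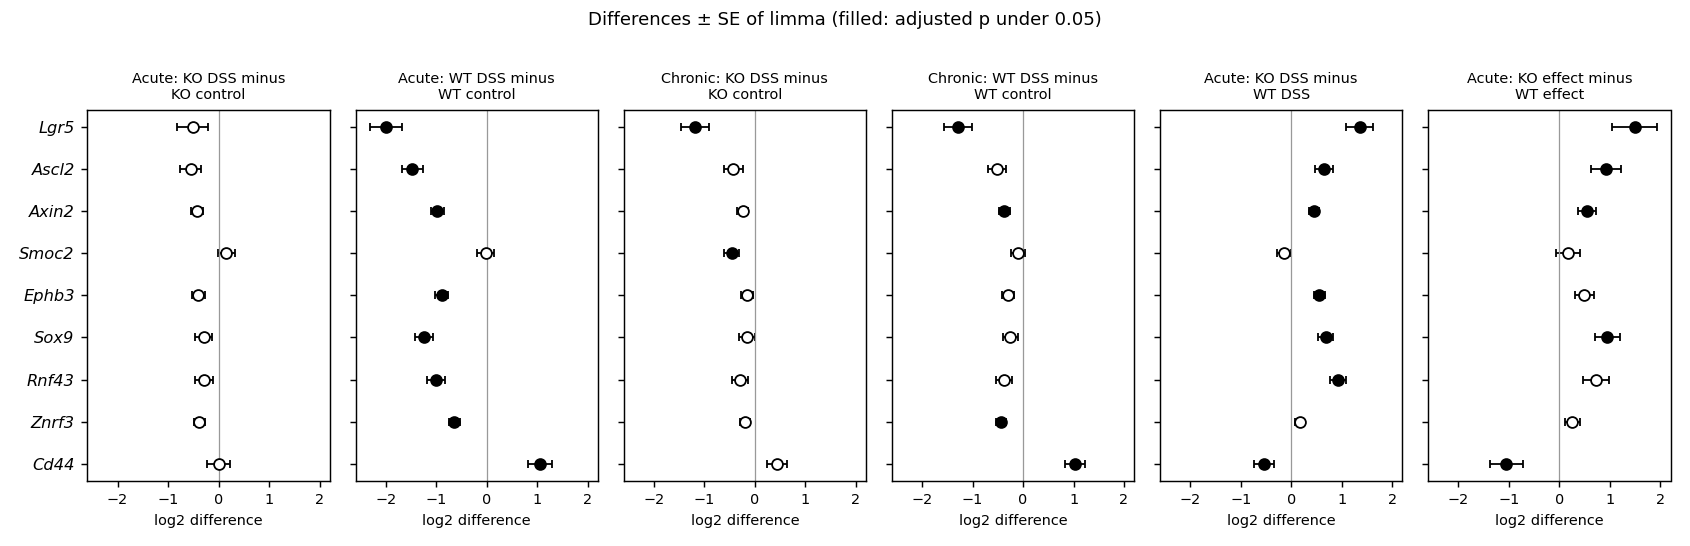
Log2 differences (horizontal axis) of the 9 genes with the SE of the limma fit, in 6 comparisons; filled points have an adjusted p under 0.05. Lgr5 is filled in every panel except acute DSS in knockout, where the 9 points are open, and Cd44 is on the opposite side from Lgr5 in the panels of wild-type DSS.

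Knockout and wild-type mice were next set against each other under acute DSS. Of the 9 genes 6 were higher and 1 lower in knockout acute DSS, where 30.9% of all genes passed, 15.8% higher and 15.2% lower, and the median was 0.55 against 0.02 over all genes. The comparison uses the same wild-type DSS arrays as the one above, so the 2 are not separate evidence.

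Lgr5 (7.70, 8.58 and 9.05 as lowest, median and highest in knockout acute DSS, against 6.68, 6.98 and 7.92 in wild-type acute DSS) was higher by 1.35 ± 0.26, or 2.55-fold (adjusted p = 2.40e-04). The ranges met only through knockout replicate 6 and wild-type replicate 4. Rnf43 ran from 8.51 to 9.56 in knockout and from 7.72 to 8.58 in wild type (0.93 ± 0.15, adjusted p = 3.29e-05). Sox9 (0.68 ± 0.15), Ephb3 (0.55 ± 0.11) and Axin2 (0.45 ± 0.10) were higher as well (adjusted p = 6.39e-04, 3.31e-04 and 0.00134). Ascl2 was higher by 0.65 ± 0.18 (adjusted p = 0.00544) and was the gene whose groups did not overlap, the lowest knockout mouse at 7.39 and the highest wild type at 7.38, while 2.96% of all genes lay wholly above.

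Znrf3 (0.17 ± 0.09, adjusted p = 0.168) and Smoc2 (-0.15 ± 0.14, adjusted p = 0.444) did not pass. Cd44 was lower in knockout acute DSS by -0.54 ± 0.20 (adjusted p = 0.0351), with 9.58 to 10.55 in knockout and 10.14 to 11.33 in wild type. That call ended without either wild-type replicate 1 or 3, or without knockout replicate 1, 3 or 5, with an adjusted p of up to 0.188. Without both wild-type replicates it stood at -0.20 (adjusted p = 0.553), whereas the other 6 genes still passed, Lgr5 at 1.22 (adjusted p = 0.00893).

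Within the animal series that holds all 5 wild-type and 3 of the knockout DSS mice, Lgr5 was higher by 1.53 ± 0.29 (adjusted p = 0.00528), Rnf43 by 1.01 ± 0.17 (adjusted p = 0.00339) and Ephb3 by 0.66 ± 0.11 (adjusted p = 0.00267). Sox9, Ascl2 and Axin2 passed there too, and Cd44 did not (-0.67 ± 0.25, adjusted p = 0.0784). With animal series as a covariate over all arrays, Ascl2 lost its call (0.50 ± 0.20, adjusted p = 0.0527). Of the pan-epithelial genes 8 of 12 were also higher in knockout acute DSS, with a median of 0.57, 8 of 10 mesenchyme genes were lower, with a median of -1.12, and 6 of 12 leukocyte genes were lower, with a median of -0.70. Scaled to the pan-epithelial signal, which moved the median of all genes to -0.54, Lgr5 (0.79, adjusted p = 0.0109) and Rnf43 (0.36, adjusted p = 0.0441) were higher, Cd44 (-1.10) and Smoc2 (-0.71) were lower, and Axin2 (-0.11) and Ephb3 (-0.01) changed sign. Ascl2 (0.08, adjusted p = 0.749) and Sox9 (0.12, adjusted p = 0.470) then no longer passed.

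Of the other pathway genes some passed between knockout and wild-type acute DSS, where 30.9% of all genes did. Rspo1 was lower in every knockout mouse (7.56 to 7.75) than in any wild-type mouse (7.86 to 8.77), by -0.77 ± 0.12 (adjusted p = 1.62e-05). Rspo3 was lower by -1.12 ± 0.22 and Lgr4 higher by 0.60 ± 0.17 (adjusted p = 2.48e-04 and 0.00721). Of 19 Wnt ligands 0 were higher and 5 lower, with Wnt5a at -1.41 ± 0.17, and of 11 secreted antagonists 5 were lower, with Sfrp1 at -1.91 ± 0.32 and Frzb at -1.0 ± 0.24. Of 20 further crypt base genes 5 were higher and 4 lower, with Atoh1 at 1.70 ± 0.39 and the Myc-regulated gene Cdca7 at 0.80 ± 0.11. The ligands Efnb1 (0.47 ± 0.12) and Efnb2 (0.45 ± 0.16) were higher, and Has2 (-1.07 ± 0.28) and Msn (-0.86 ± 0.21) lower. Of the 17 cell cycle genes 0 passed, and 3 had an unadjusted p under 0.05.

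**Figure D3:**
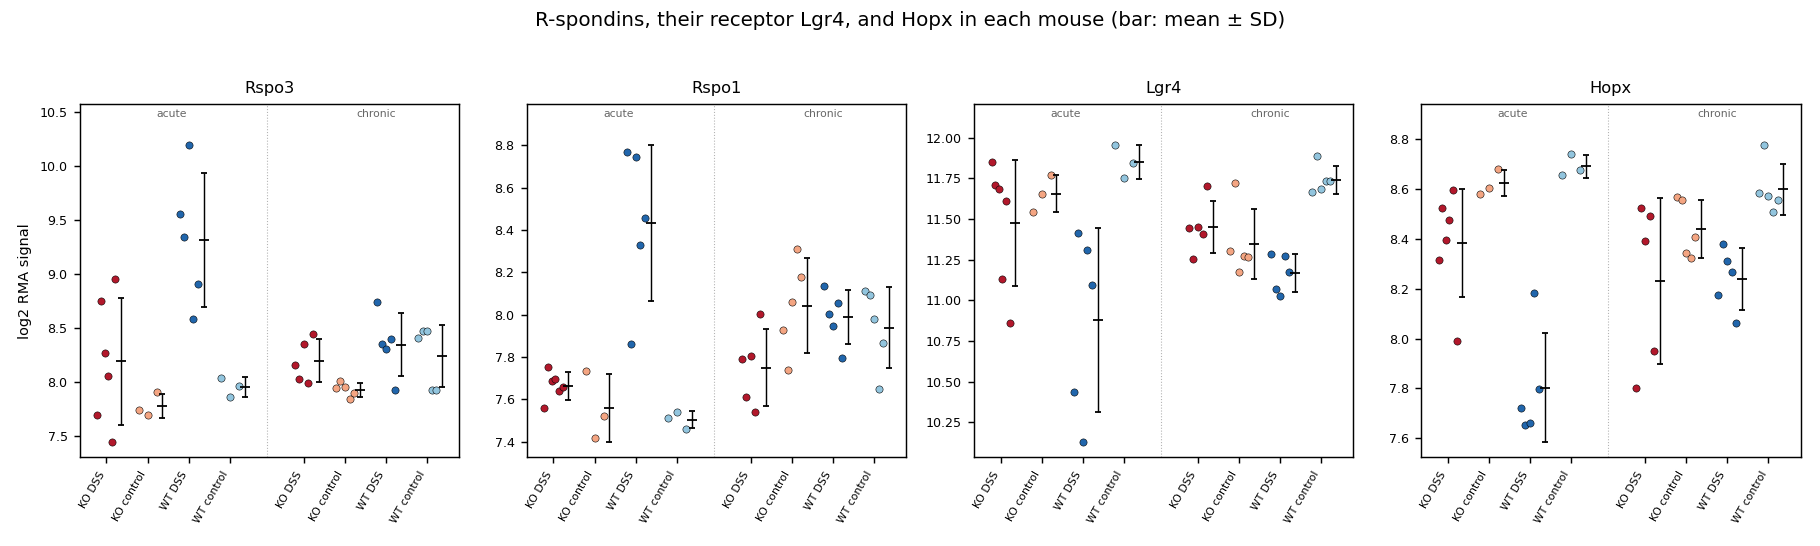
Log2 RMA signal (vertical axis) of Rspo3, Rspo1, Lgr4 and Hopx in each of 37 mice by group; bars are the group mean ± SD. Wild-type acute DSS mice have the highest means of Rspo1 and Rspo3, and their Rspo1 runs from 7.86 to 8.77, above the 7.56 to 7.75 of knockout acute DSS.

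The test of whether the genotypes responded differently to acute DSS (knockout difference minus wild-type difference) passed for 5 of the 9 genes, 4 upward and 1 downward, against 12.3% of all genes, 6.51% upward and 5.75% downward. It gave 1.49 ± 0.44 for Lgr5, 0.95 ± 0.25 for Sox9, 0.92 ± 0.30 for Ascl2, 0.55 ± 0.18 for Axin2 and -1.05 ± 0.33 for Cd44 (adjusted p = 0.0255, 0.0125, 0.0386, 0.0381 and 0.0330). Rnf43 (0.73 ± 0.25) and Ephb3 (0.50 ± 0.19) just missed (adjusted p = 0.0552 and 0.0742). None of the 5 held in limma without wild-type DSS replicates 1 and 3 (adjusted p of 0.0573 to 0.146), nor in a fit of the 17 acute arrays alone, and with animal series in the model Ascl2 alone passed. Sox9 kept its call without any single array, and leaving out 1 array at a time gave 1 to 7 passing genes. The knockout and wild-type acute controls belonged to different animal series, so genotype and series cannot be told apart in those controls.

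Without DSS none of the genes passed between the genotypes. In acute controls 0 of 9 passed in limma, and 0 had an unadjusted p under 0.05, where 1.12% and 13.1% of all genes did. In chronic controls 0 of 9 passed and 1, Cd44, had an unadjusted p under 0.05, where 0.1% and 9.46% of all genes did. Lgr5 differed by -0.14 ± 0.35 in acute and -0.07 ± 0.27 in chronic controls. Cd44 had 10.02, 10.43 and 9.66 in knockout acute controls, against 9.55, 9.55 and 9.46 in wild-type acute controls, the knockout wholly higher (0.52 ± 0.26, adjusted p = 0.410), as 10.8% of all genes were. Smoc2 ran from 8.64 to 8.84 in knockout acute controls and from 9.04 to 9.12 in wild-type acute controls, the knockout wholly lower (-0.32 ± 0.19, adjusted p = 0.494), as 15% of all genes were. In chronic controls Cd44 had 9.62, 9.51, 10.07, 10.05 and 10.09 in knockout, against 9.26, 9.21, 9.24, 9.41 and 9.58 in wild type, overlapping slightly (0.53 ± 0.20, adjusted p = 0.384).

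In chronic DSS Lgr5 was lower in both genotypes, and none of the pan-epithelial genes passed. Of the 9 genes 2 fell in knockout chronic DSS, where 7.94% of all genes passed and 5.47% fell, and 3 fell and 1 rose in wild-type chronic DSS, where 14.4% passed, 8.58% falling and 5.79% rising. The median of the 9 was -0.24 in knockout, against -0.04 over all genes, and -0.38 in wild type, against -0.00 over all genes. Of the 12 pan-epithelial genes 0 passed in either genotype, and 0 had an unadjusted p under 0.05, with medians of 0.10 in knockout and -0.00 in wild type. Of 5 colon identity genes 1 fell in each genotype, with medians of -0.39 in knockout and -0.53 in wild type.

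Lgr5 had 7.29, 8.24, 7.70, 8.66 and 7.23 in knockout chronic DSS, against 8.92, 9.42, 8.98, 8.79 and 8.97 in knockout chronic controls. All DSS mice lay below all controls, replicate 4 close to them (-1.19 ± 0.27, 2.28-fold lower, adjusted p = 0.00714). In wild-type chronic DSS it had 8.52, 7.68, 8.36, 6.97 and 7.43, against 9.06, 9.50, 8.85, 8.93 and 9.08 in wild-type chronic controls. Again no DSS mouse reached a control, and the spread within DSS was wide (-1.29 ± 0.27, 2.45-fold lower, adjusted p = 0.00141). Scaled to the pan-epithelial signal it stood at -1.25 in knockout and -1.31 in wild type (adjusted p = 0.0358 and 0.00297). The other chronic calls ended under that scaling, those of Smoc2 in knockout (adjusted p = 0.843) and of Znrf3, Axin2 and Cd44 in wild type (adjusted p = 0.387, 0.497 and 0.0821). Within the animal series that holds all wild-type chronic DSS mice and 3 of their controls Lgr5 stood at -1.35 ± 0.32 (adjusted p = 0.0220). No single array ended the Lgr5 call in either genotype.

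The Wnt feedback genes gave smaller differences. In knockout chronic DSS Znrf3 and Axin2 stood at -0.20 ± 0.09 and -0.24 ± 0.11 (adjusted p = 0.200 and 0.177). Znrf3 fell in wild-type chronic DSS by 0.44 ± 0.09 (8.65 to 9.0, against 8.98 to 9.42 in controls, adjusted p = 0.00161), and Axin2 by 0.38 ± 0.11 (8.48 to 8.96, against 8.91 to 9.35, adjusted p = 0.0183). The Axin2 call ended without wild-type chronic DSS replicate 1 or 4 or control replicate 5, and with animal series in the model (-0.27, adjusted p = 0.150). Ascl2 was at -0.43 ± 0.18 in knockout and -0.52 ± 0.18 in wild type (adjusted p = 0.149 and 0.0548). Sox9, Rnf43 and Ephb3 passed in neither genotype in the reported fit of all arrays. With array weights, or with the compared arrays only, more of the genes described here passed in wild-type chronic DSS, as counted in the closing section. Within the 1 animal series used above for wild-type chronic DSS, Ephb3 passed in limma (-0.38 ± 0.10, adjusted p = 0.0359). Rnf43 and Sox9 did not pass there (adjusted p = 0.0553 and 0.178). With animal series as a covariate Ephb3 did not pass (adjusted p = 0.0526).

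Smoc2 fell in knockout chronic DSS, where it had 8.55, 8.54, 8.46, 8.46 and 8.38, against 8.80, 9.14, 9.12, 8.93 and 8.71 in knockout chronic controls. The DSS mice were tightly grouped and all below the controls, with the smallest gap 8.55 against 8.71. The call was marginal (-0.46 ± 0.15, adjusted p = 0.0474) and ended in 9 of the 10 fits that left out 1 array, with an adjusted p of up to 0.120. In wild-type chronic DSS Smoc2 split, with 9.40, 8.39, 9.32, 8.90 and 8.40, against 8.87, 9.01, 9.15, 8.93 and 8.96 in controls (-0.10 ± 0.15, adjusted p = 0.726).

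Cd44 had 9.89, 10.38, 10.31, 10.89 and 10.06 in knockout chronic DSS, against 9.62, 9.51, 10.07, 10.05 and 10.09 in controls, and the groups overlapped (0.44 ± 0.20, adjusted p = 0.190). It had 10.66, 10.60, 10.35, 9.91 and 10.34 in wild-type chronic DSS, against 9.26, 9.21, 9.24, 9.41 and 9.58 in controls. Every DSS mouse was higher than every control (1.03 ± 0.20, 2.04-fold, adjusted p = 6.85e-04). The knockout controls stood 0.53 above the wild-type controls. Of 12 leukocyte genes 1 rose in knockout chronic DSS and 8 in wild-type chronic DSS, with medians of 0.43 and 1.05. What share of the Cd44 signal came from leukocytes was not tested.

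Counted over the 9 genes, 2 were below all controls in knockout chronic DSS, where 5.52% of all genes were, and 1 below and 1 above in wild-type chronic DSS, where 8.76% and 6.23% were. Between the genotypes in chronic DSS, 0 of 9 passed in limma, with 2 at an unadjusted p under 0.05, where 2.48% and 16.9% of all genes did, and the interaction passed for 0 of 9 in limma, with 1 (Cd44, -0.60 ± 0.29) at an unadjusted p under 0.05, where 0.421% and 15.2% of all genes did. The 2 genotypes' chronic DSS mice belonged to different animal series. The Lgr5 responses differed by 0.10 ± 0.39. Its acute interaction of 1.49 was not tested against the chronic value.

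Among the pathway genes in chronic DSS, Fzd7 fell in knockout by 0.53 ± 0.11 and in wild type by 0.64 ± 0.11. The stromal ligand Wnt2b fell in knockout by 0.78 ± 0.21 (adjusted p = 0.0208), and stood at -0.46 ± 0.21 in wild type (adjusted p = 0.150). Lgr4 stood at 0.10 ± 0.18 in knockout and fell in wild type, with 11.28, 11.07, 11.03, 11.27 and 11.17, against 11.66, 11.89, 11.69, 11.73 and 11.73 in controls (-0.57 ± 0.18, adjusted p = 0.0263). Rspo3 and Rspo1 passed in neither genotype. Hopx fell in wild type by 0.36 ± 0.12, and the Notch target Hes1 by 0.45 ± 0.10. The squamous envelope gene Sprr1a rose in knockout by 1.33 ± 0.29 and in wild type by 2.24 ± 0.29, and the intestinal homeobox gene Cdx2 rose in wild type by 1.62 ± 0.40. Of the 17 cell cycle genes 2 fell in knockout, Mcm5 (-0.51 ± 0.15) and Tyms (-0.40 ± 0.12), and 0 passed in wild type, where 1 had an unadjusted p under 0.05.

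**Figure D4:**
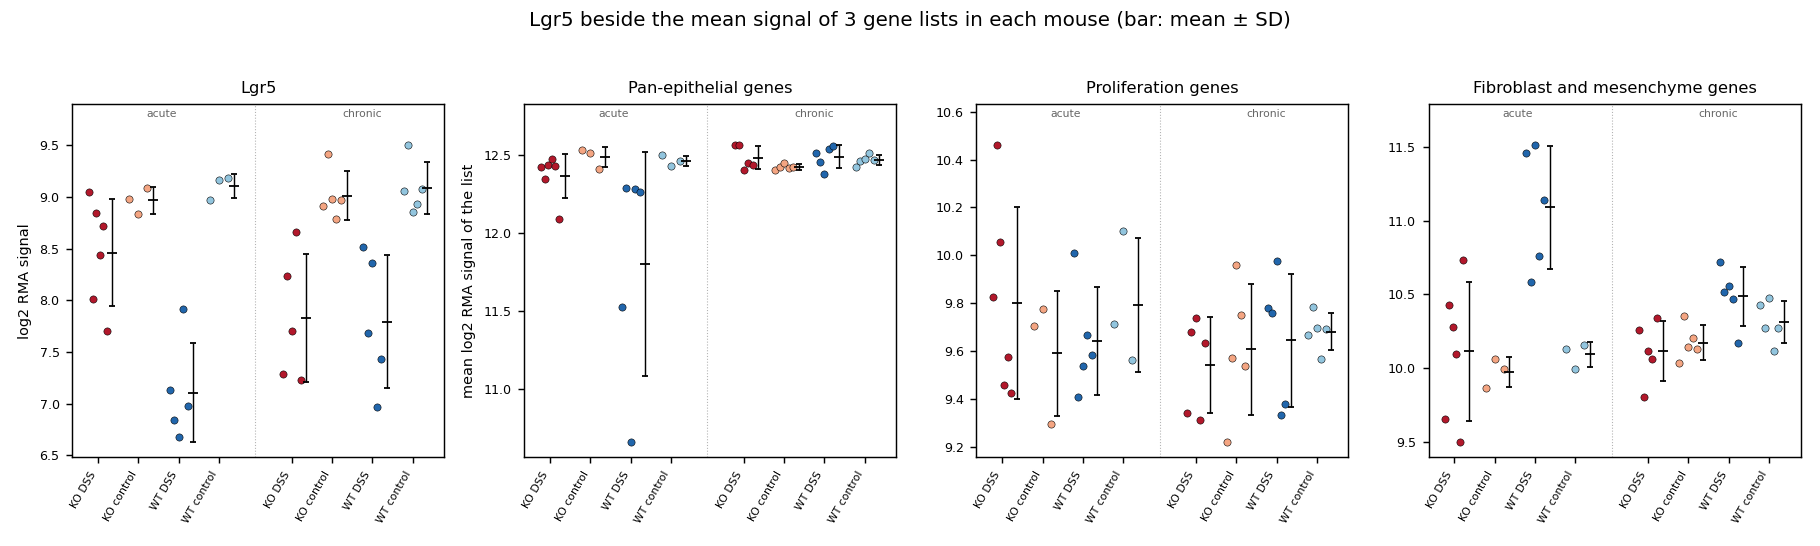
Log2 RMA signal of Lgr5 (left panel) and the mean log2 signal of pan-epithelial, proliferation and mesenchyme genes in each of 37 mice by group; bars are the group mean ± SD. Chronic DSS mice have lower Lgr5 than their controls in both genotypes with pan-epithelial signals of 12.38 to 12.57, and wild-type acute DSS replicates 1 and 3 lie at 11.53 and 10.66.

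The chronic response was then compared with the acute response within each genotype. Acute and chronic mice belonged to different animal series, so phase and series cannot be told apart. In wild type the chronic difference was the higher for Sox9 by 0.99 ± 0.23, Ascl2 by 0.96 ± 0.28, Axin2 by 0.61 ± 0.17 and Ephb3 by 0.60 ± 0.18 (adjusted p = 0.00504, 0.0194, 0.0128 and 0.0193), so 4 of 9 passed, all upward, where 17% of all genes passed and 9.30% did so upward. The chronic values lay nearer to 0 than the acute values for each of these 4. For Lgr5 the difference of 0.71 ± 0.42 did not pass (adjusted p = 0.246), and for Cd44 it was -0.02 ± 0.31. None of the 4 passed after scaling to the pan-epithelial signal. In knockout 0 of 9 passed in limma and 1 (Smoc2, -0.61 ± 0.22) had an unadjusted p under 0.05, where 0.01% and 11.4% of all genes did.

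Across the 8 groups Lgr5 had its lowest mean in wild-type acute DSS (7.11 ± 0.48, SD), followed by wild-type chronic DSS (7.79 ± 0.64), knockout chronic DSS (7.83 ± 0.62), knockout acute DSS (8.46 ± 0.52) and the 4 control groups (8.97 to 9.11). Each neighbouring pair in this order overlapped. The order also sets acute beside chronic mice, which belonged to different animal series. For the 7 genes other than Smoc2 and Cd44 the lowest group was wild-type acute DSS, and for Cd44 that group was the highest (10.57 ± 0.50).

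The 7 genes other than Smoc2 and Cd44 also varied together within groups, some of their pairs only weakly. After each group's mean was taken away, Pearson's r over the 37 arrays was highest for Ephb3 and Znrf3 (0.70) and for Ascl2 and Axin2 (0.66). Over the 21 pairs of the 7 genes other than Smoc2 and Cd44 it ran from 0.10 to 0.70, with a median of 0.47, and over the 15 pairs with Smoc2 or Cd44 from -0.40 to 0.32, with a median of -0.03. Lgr5 and Cd44, which moved in opposite directions under DSS in wild type, had an r of -0.01 within groups. These values are descriptions, since arrays share tissue makeup, and the split of the genes was made after the values were seen.

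Over all genes, the 5 whose signal followed Lgr5 most closely across the 37 arrays were Hopx (r = 0.86), Dbt (0.85), Zfp599 (0.85), Idh3a (0.85) and Gpld1 (0.85). Within groups the r with Lgr5 was 0.63 for Hopx, 0.47 for Dbt, 0.64 for Zfp599, 0.41 for Idh3a and 0.66 for Gpld1. For Cd44 the 5 closest genes were St3gal1 (0.86), Ccl9 (0.85), Esm1 (0.85), Rnf150 (0.85) and Lpgat1 (0.85). Within groups their r with Cd44 ran from 0.65 to 0.79. The arrays share the group differences, which enter the values across the 37 arrays.

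**Figure D5:**
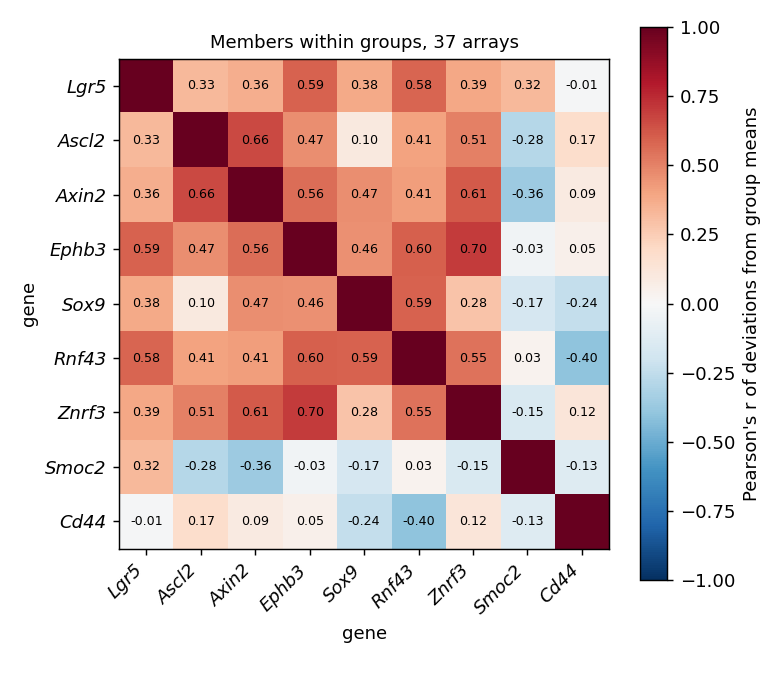
Pearson's r (colour and printed values) between the 9 genes after subtraction of group means, over 37 arrays; both axes list the genes. The block from Lgr5 to Znrf3 holds positive values of 0.10 to 0.70, and the rows of Smoc2 and Cd44 run from -0.40 to 0.32.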

How the data were processed

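The authors deposited RMA values on a log2 scale for each transcript cluster (RMA per the submitters' processing notes, version not given in the sources used here). The log base is not stated and was read as 2. Of 35511 clusters, 21789 carried a single symbol in the probe annotation, and 19938 genes remained with the brightest cluster per symbol. Each title carries its own animal number, so arrays of a group were treated as different mice, and p-values measure the spread between these mice. The numbers form 4 series, treated as possible batches. All 37 arrays were fitted together with 8 group means (limma 3.58.1, R 4.3.3, default eBayes, 29 residual and 3.18 prior degrees of freedom), with 12 contrasts, two-sided p-values adjusted by Benjamini-Hochberg over all genes, and a threshold of 0.05. Array number limits precision. Array medians were 7.67 to 7.76, no 2 arrays correlated above 0.996, and none was left out. The model was tested on simulated data. Members and gene lists were chosen with earlier results of these data known. Named genes were the members and up to 3 passing genes per list with the largest difference. Genes of lists with 6 or fewer could also be named, and not all of them were. Others were the 5 genes most like Lgr5 and Cd44, and Timp1. Mki67 and values of genes named in another comparison were added. Alternatives were a trended and robust prior, no dim genes, all clusters, cyclic loess, scaling to pan-epithelial genes, array weights, series as covariate or alone, compared arrays only, and leaving out arrays.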

Additional observations from a re-analysis of the deposited data

Results flagged for a closer look

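Knockout acute DSS replicate 6 lay far below its group in Ephb3 (8.36), Rnf43 (8.51) and Sox9 (9.61), beyond Dixon's limit for 6 samples. These were 3 of 54 gene and group combinations examined, and chance gives about 1 in 20. The same array had the group's highest Timp1 signal (8.68).

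The acute DSS responses of the genotypes, knockout minus wild type, differed in limma for Lgr5 (1.49), Ascl2 (0.92), Axin2 (0.55), Sox9 (0.95) and Cd44 (-1.05), with the limits given in the report.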

How the results depend on the processing

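Of 30 calls on single genes, 30 kept their direction and threshold with a trended and robust prior and without the dimmest genes, 28 with all clusters and with cyclic loess, 29 with array weights, 24 with animal series as a covariate, 23 with the compared arrays only, and 9 after scaling to pan-epithelial genes. That scaling lost 16 and turned 5: Znrf3 in wild-type acute DSS (0.0192), Axin2 (-0.11) and Ephb3 (-0.00809) between the genotypes under acute DSS, and Axin2 (-0.0769) and Ephb3 (-0.0804) in chronic against acute wild type. It also moved the median of all genes to 0.67, -0.54 and -0.69 in these comparisons.

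Passing members under scaling numbered 5 in wild-type acute DSS (8 in the reported fit), 1 in wild-type chronic DSS (4), 1 in knockout chronic DSS (2), 4 between the genotypes under acute DSS (7), 0 in the acute interaction (5) and 0 in chronic against acute wild type (4). Array weights gave 3 in knockout acute DSS (0), 8 in wild-type chronic DSS, 1 and 2 between genotypes in chronic controls and chronic DSS (0 each), and 1 in chronic against acute knockout (0). Compared arrays only gave 7 in wild-type chronic DSS and 0 in the acute interaction. Cyclic loess gave 1 in knockout chronic DSS. The acute interaction had 3 with all clusters, 1 with series as a covariate and 0 without wild-type acute DSS replicates 1 and 3, an omission chosen after seeing the data. The share of all genes that passed under each setting is not given in this section, here or for the fits leaving out 1 array. These counts therefore do not tell a change in the members from a change over all genes. The cause was not tested.

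Leaving out 1 array at a time gave 0 to 3 in knockout acute DSS, 1 to 2 in knockout chronic DSS, 0 to 1 between genotypes in chronic DSS, 1 to 7 in the acute interaction (1 without knockout control replicate 1 or 2 or wild-type control replicate 3) and 2 to 5 in chronic against acute wild type (2 without wild-type acute control replicate 3). No paired analysis was possible because the titles give no replicate number shared between groups.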
